A study of Mus musculus with 5 samples.

Results

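The genes described here are 10 genes of the early placenta and of simple epithelia, measured in mouse embryonic stem (ES) cells, a hepatoma line and their fusion hybrids. They are the trophoblast regulators Cdx2, Elf5, Hand1, Tfap2c and Gata3, the placental gene Plac1, and the keratin genes Krt7, Krt8, Krt18 and Krt19. They were picked by name, with earlier results of these data known. They were read by 12 of the 41174 probes on the array, since Krt7 and Krt8 had 2 probes each. Of these 41174 probes 26888 could be named, for 18327 genes. Gene expression was measured on 5 Agilent mouse arrays, 1 per condition. ES stands for the embryonic stem cell line E14. Hepa1-6 is a mouse hepatoma cell line, and EHe are undifferentiated hybrids made by fusing E14 with Hepa1-6 cells. EHeD7 and EHeD14 are the same hybrids after 7 and 14 days of differentiation.

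By the study's methods the ES cells carried RFP and hygromycin resistance under an EF-1α promoter, and the cancer cells carried GFP and neomycin resistance. The hybrids carried all of these and were near-tetraploid. They were fused with polyethylene glycol, selected with both drugs and picked as colonies, and the sources used here do not give how many colonies went on the array. The medium of the ES cells and of EHe held leukemia inhibitory factor and serum replacement. By the labels the hybrids were differentiated on gelatin in a high-glucose medium that held fetal calf serum and for which that factor is not listed. Hepa1-6 was grown in a medium of the same kind, so that medium and cell state cannot be told apart. The methods describe embryoid bodies for differentiation, without naming the array samples.

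The trophectoderm is the outer epithelium of the blastocyst and gives rise to the trophoblast of the placenta. Cdx2, Elf5, Tfap2c and Gata3 are transcription factors that act in setting up or keeping this lineage, and Hand1 acts later, in the formation of trophoblast giant cells. The keratins Krt7 and Krt8, of type II, pair with Krt18 and Krt19, of type I, to form the intermediate filaments of trophoblast and of other simple epithelia. In the liver, hepatocytes hold Krt8 and Krt18, whereas bile duct cells also hold Krt7 and Krt19.

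The 4 keratins and the regulators Hand1 and Gata3 were higher in the differentiated hybrids than in EHe, by at least 18.3-fold each at both days on the probe used per gene. The other Krt7 probe gave at least 13.6-fold at day 7 and 16.9-fold at day 14. With another background correction (normexp) the lowest fold of these 6 genes was at least 6.39, for Gata3 at day 7. Tfap2c was lower, by 13.9-fold at day 7 and 34.9-fold at day 14. Cdx2, Elf5 and Plac1 did not stand above background in EHe, so that Cdx2 and Elf5 gave no fold over it, and that of Plac1 at day 14 was under 3-fold. Of the keratins, Krt7, Krt8 and Krt18 were also high in Hepa1-6, whereas Krt19 was nearly at the detection limit there and was 1038-fold higher in EHeD14, or 331-fold to 649-fold higher under normexp, quantile normalization or median scaling.

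Levels are given as the log2 of the processed signal relative to the 75th percentile of the same array, so that 0 is the level of that percentile. A probe counted as measured on an array where the scanner software called it well above background. Otherwise its level was set to the lowest signal with that call on the array, if its own signal was lower, and the fold became a lower bound. These limits lay between -6.16 in EHeD7 and -4.84 in EHe. A difference was called when it was over 3-fold, a round size with no test behind it, because 1 array per condition leaves no error between replicates. The spread between repeated spots of a probe had a median SD of up to 0.14 on the log2 scale, and differences of up to 0.39 are described as within it. In RNA from whole cultures, fewer cells of a type and less RNA per cell cannot be told apart. Hepa1-6 was hybridized on another slide than the other 4 arrays, so that slide and line cannot be told apart.

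Windows of 250 bases before the start site were taken for the genes from the RefSeq promoter table (build GRCm38.p6), which matched 7 of the 10 genes with 9 windows. Hand1, Krt19 and Tfap2c had no entry. The windows of Krt8 and Krt18, whose probes ran most alike, of Krt7 on the same chromosome, and of Gata3 are shown because these genes carried the difference between EHe and the differentiated hybrids. They are written 5′ to 3′ on the gene's strand, at chr15:102004343-102004592 (minus strand) for Krt8, chr15:102027966-102028215 (plus strand) for Krt18, chr15:101412153-101412402 (plus strand) for Krt7 and chr2:9878601-9878850 (minus strand) for Gata3. Capitals mark the motifs searched for on both strands.
Krt8: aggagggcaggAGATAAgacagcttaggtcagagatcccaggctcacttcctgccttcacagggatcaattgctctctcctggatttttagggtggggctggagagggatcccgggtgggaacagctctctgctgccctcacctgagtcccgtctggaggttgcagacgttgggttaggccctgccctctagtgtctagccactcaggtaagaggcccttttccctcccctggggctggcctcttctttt
Krt18: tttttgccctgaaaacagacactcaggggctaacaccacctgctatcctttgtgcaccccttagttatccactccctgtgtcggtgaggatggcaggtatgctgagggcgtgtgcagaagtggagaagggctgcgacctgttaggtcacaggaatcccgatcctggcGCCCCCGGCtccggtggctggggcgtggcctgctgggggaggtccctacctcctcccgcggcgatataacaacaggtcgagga
Krt7: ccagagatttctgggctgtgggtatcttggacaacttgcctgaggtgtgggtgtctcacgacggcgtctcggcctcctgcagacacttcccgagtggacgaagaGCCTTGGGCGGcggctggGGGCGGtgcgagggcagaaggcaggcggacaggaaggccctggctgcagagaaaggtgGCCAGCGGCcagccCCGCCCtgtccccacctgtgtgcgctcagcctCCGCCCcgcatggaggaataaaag
Gata3: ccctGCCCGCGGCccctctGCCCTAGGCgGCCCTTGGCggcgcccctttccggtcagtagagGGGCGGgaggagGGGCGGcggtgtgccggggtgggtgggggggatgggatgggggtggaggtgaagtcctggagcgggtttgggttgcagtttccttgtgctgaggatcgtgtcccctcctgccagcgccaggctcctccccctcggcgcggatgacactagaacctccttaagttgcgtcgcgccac

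The letters of the AP-2 motif, GCCNNNGGC, the kind of site that Tfap2c binds, were found 3 times in the Gata3 window, 2 times in that of Krt7 and 1 time each in those of Krt18 and Cdx2. They occurred in 13.7% of all 32851 promoter windows of this length. The GATA letters AGATAA or TGATAA were found in the windows of Krt8 and Plac1, and in 16.6% of all windows. The Sp1 letters GGGCGG were found in those of Krt7, Gata3 and Plac1, and in 32.7% of all windows, and 1 of the 4 matches in Krt7 overlapped an AP-2 match. The Cdx letters TTTATG were found in 1 window of Elf5, and in 10.8% of all windows. The AP-1 letters TGANTCA were found in none of the 9 windows, and in 6.75% of all windows. The same held for the Ets letters CCGGAAG, which 6.91% of all windows had, and for the letters of the TATA box, TATAAA, which 12.4% had. A GC content of 70% in the Gata3 window, 66% in Krt7, 60.4% in Krt18 and 58% in Krt8 lay above the median of 52.4% over all windows. So did the windows of Elf5 (62.8% and 56.8%) and Cdx2 (55.2%), while those of Plac1 (40.4% and 48.8%) lay below it. These matches are descriptions of letters and not sites of binding.

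The ES array measured 8 of the 10 genes, the EHe array 5, the EHeD7 array all 10, the EHeD14 array 9 and the Hepa1-6 array 4. The 4 keratins were the genes measured on all 5 arrays.

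Hand1, a basic helix-loop-helix factor of trophoblast giant cells that is also made in lateral mesoderm, had a level of -1.75 in ES, -4.84 in EHe, -0.05 at day 7, 0.30 at day 14 and -7.33 in Hepa1-6. It was not well above background in EHe and Hepa1-6, and both differentiated hybrids lay above ES. The fold in EHeD7 over EHe was at least 27.6, and in EHeD14 over EHe at least 35.2. With normexp these bounds were 10.2 and 12.6. EHe lay at least 8.52-fold below its ES parent, a bound of 3.52 with normexp. EHeD14 was 4.13-fold higher than ES, and the difference between the days, 0.35 on the log2 scale, was within the spread of repeated spots.

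Gata3, a zinc finger factor of the trophectoderm that is also made in surface ectoderm, followed the same order of arrays as Hand1. Its level was -3.80 in ES, -5.24 in EHe, -0.65 at day 7, -0.48 at day 14 and -7.42 in Hepa1-6. Only the ES array and the 2 differentiated hybrids were well above background, with ES far the lowest of these 3. EHeD7 was at least 18.3-fold and EHeD14 at least 20.6-fold higher than EHe (bounds of 6.39 and 7.28 with normexp), and EHeD14 was 10-fold higher than ES. EHe was at least 2.06-fold lower than ES, which is under the threshold, and the 2 days differed by 0.17 on the log2 scale.

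Tfap2c, the factor AP-2γ, which acts in trophectoderm and in primordial germ cells, moved the other way. Its level was 4.02 in ES, 3.29 in EHe, -0.51 at day 7, -1.83 at day 14 and -7.37 in Hepa1-6, where it was not well above background. The undifferentiated cells were the highest, and each step in this order was larger than the spread of repeated spots. EHeD14 was 34.9-fold lower than EHe and 57.6-fold lower than ES, but at least 11.1-fold higher than Hepa1-6. Hepa1-6 was at least 639-fold lower than ES, a bound of 188 with normexp.

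Cdx2, the homeobox factor of the trophectoderm, was highest in ES, at -3.46. Its level was -7.12 in EHe, -5.75 at day 7, -4.85 at day 14 and -7.62 in Hepa1-6, with EHe and Hepa1-6 not well above background. The levels of EHeD7 and EHeD14 did not exceed the limit of the EHe array, so no fold over EHe can be given. EHeD7 was 4.91-fold and EHeD14 2.63-fold lower than ES, and EHeD14 was 1.87-fold higher than EHeD7 (1.1-fold with normexp).

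Elf5, an Ets factor of trophoblast stem cells, was well above background on the EHeD7 array alone. Its level there was -5.72, against -6.49 in ES, -6.82 in EHe, -6.64 in EHeD14 and -7.45 in Hepa1-6. The EHeD7 level lay below the limits of all the other arrays, which did not measure Elf5, so that no comparison gave a fold.

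Plac1, an X-linked gene made mainly by trophoblast, was the sixth of the placental genes. Its level was -5.12 in ES, -6.44 in EHe, -5.52 at day 7, -4.03 at day 14 and -6.18 in Hepa1-6, and it was well above background only in the 2 differentiated hybrids. EHeD14 was 2.82-fold higher than EHeD7 and at least 1.76-fold higher than EHe. Neither difference was over the threshold. That between the days was 1.49 on the log2 scale, and with normexp it was 0.23, within the spread of repeated spots.

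**Figure D1:**
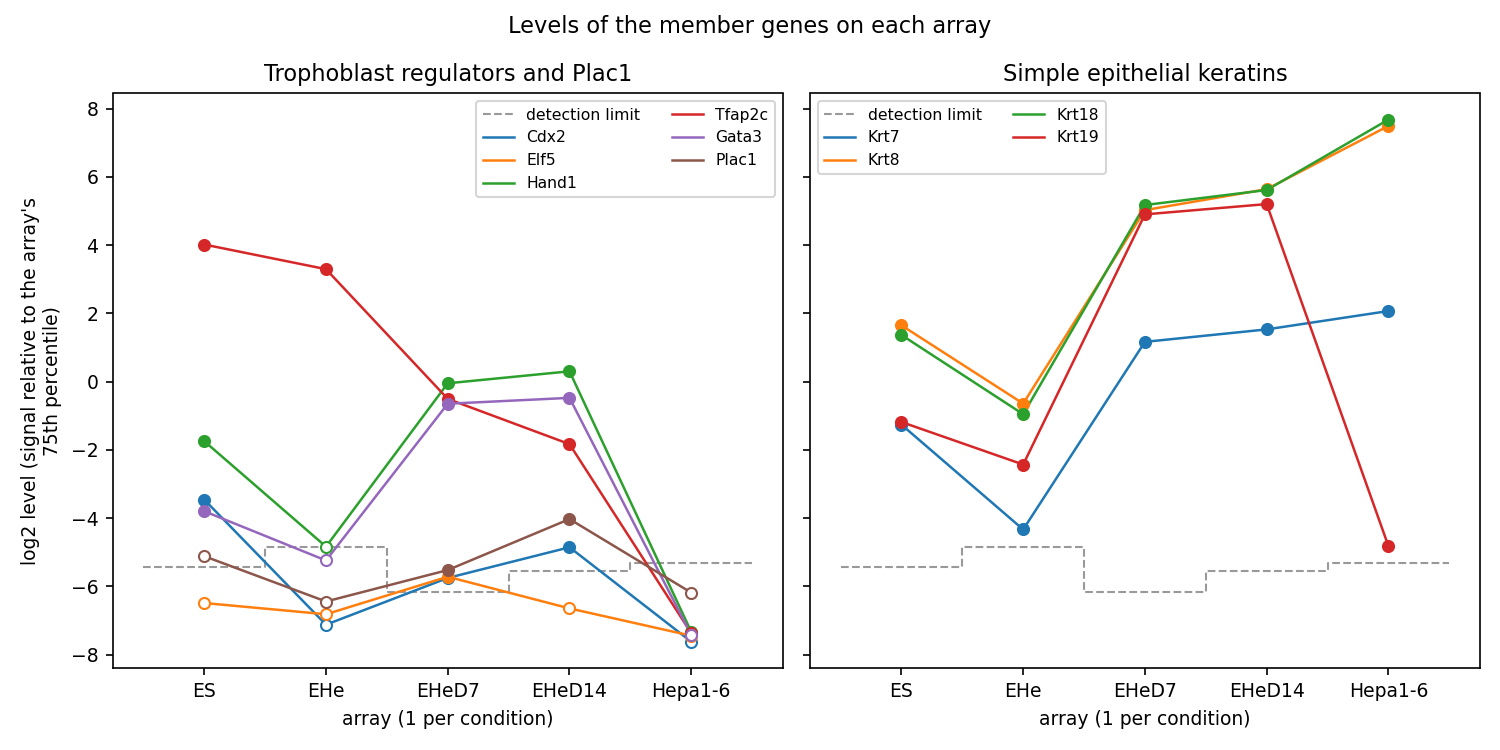
The log2 level of each of the 10 genes (vertical axis, relative to the array's 75th percentile) on the 5 arrays (horizontal axis), with a filled point where the probe was well above background, an open point where it was not, and the detection limit of each array as a dashed line. Hand1, Gata3 and the 4 keratins have lower values in EHe than in ES, over 3-fold for Hand1, Krt7, Krt8 and Krt18, and are high in EHeD7 and EHeD14, Tfap2c starts at 4.02 in ES and declines, and Krt19 parts from the other keratins in Hepa1-6, at -4.82.

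The plot of levels by array shows low values in EHe and high values at both days for Hand1, Gata3 and the keratins, and a decline from ES onward for Tfap2c. Cdx2 was highest in ES, Plac1 was measured at both days only, and Elf5 at day 7 only. The lines join arrays for reading only, since Hepa1-6 is a parent and no later time.

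Krt8, a type II keratin, had levels of 1.65 in ES, -0.65 in EHe, 5.02 at day 7, 5.64 at day 14 and 7.49 in Hepa1-6. Its other probe gave 0.83, -1.23, 4.54, 5.13 and 7.16 in the same order of arrays. On both probes EHe was the lowest array and Hepa1-6 the highest. EHeD7 was 50.9-fold and EHeD14 77.8-fold higher than EHe, with 54.8 and 82.4 on the other probe.

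Krt18, the type I partner of Krt8, had levels of 1.37 in ES, -0.96 in EHe, 5.17 at day 7, 5.61 at day 14 and 7.67 in Hepa1-6. EHe was again the lowest array. Krt18 was 69.9-fold higher in EHeD7 and 94.8-fold higher in EHeD14 than in EHe. EHe was 5-fold lower than ES for Krt18 and 4.9-fold lower for Krt8.

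Krt7, a type II keratin found in ducts and in trophoblast, had levels of -1.26 in ES, -4.33 in EHe, 1.16 at day 7, 1.53 at day 14 and 2.07 in Hepa1-6. Its order of arrays was that of Krt8 and Krt18. EHeD7 was 45.2-fold and EHeD14 58.2-fold higher than EHe, while EHe was 8.41-fold lower than ES. With normexp these folds were 16.9, 21.4 and 3.69. The other Krt7 probe was not well above background in EHe, and its levels were -3.75, -5.37, -1.08, -0.76 and -0.08 in the same order. By that probe EHeD7 was at least 13.6-fold and EHeD14 at least 16.9-fold higher than EHe. EHe was at least 2.13-fold lower than ES, which is not over the threshold.

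Krt19, a type I keratin of ducts, trophoblast and early epithelia, had levels of -1.18 in ES, -2.43 in EHe, 4.90 at day 7, 5.20 at day 14 and -4.82 in Hepa1-6. Here Hepa1-6 was the lowest array and not the highest, with a signal of 51.6 against a lowest measured signal of 36.8 on that array. Krt19 was 161-fold higher in EHeD7 and 198-fold higher in EHeD14 than in EHe, the largest folds among the 10 genes. EHeD14 was 83.5-fold higher than ES. EHe was 2.37-fold lower than ES, under the threshold, and 5.24-fold higher than Hepa1-6.

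Among the 13817 genes for which a difference of EHeD14 to EHe could be given, Krt19 had rank 6 from the highest, Krt18 rank 11, Krt8 rank 16 and Krt7 rank 24. Hand1 had rank 41 and Gata3 rank 75, and both of these rest on lower bounds. Tfap2c had rank 44 from the lowest. At day 7 the ranks of the 4 keratins lay between 4 and 26 of 13795 genes.

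Counted over the 3-fold threshold, 6 of the 10 genes were higher and 1 was lower in EHeD14 than in EHe, 1 was within it and 2 gave no fold. Of the 29921 probes that at least 1 array measured, 5.18% were higher and 3.78% lower in the same comparison. The median difference was 4.75 on the log2 scale over the 10 genes, with dim values at the limits, and -0.18 over all these probes. In EHeD7 against EHe 6 genes were higher, 1 was lower and 3 gave no fold, beside 5.03% and 3.59% of all probes, with a median of 4.49 against -0.19. The 2 comparisons share the EHe array. Between EHeD14 and EHeD7 none of the 10 genes differed by over 3-fold, where 0.622% of probes were higher and 0.602% lower, and the medians were 0.36 and 0.03.

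Measured from ES, which is free of the EHe array, the 4 keratins, Hand1 and Gata3 were also over 3-fold higher in EHeD14, and Tfap2c was lower. There 6.66% of all probes were higher and 5.86% lower. In EHeD7 against ES the same 6 genes were higher and 2 were lower, Tfap2c and Cdx2, beside 6.68% and 5.92% of all probes. The folds over ES were 19 for Krt18, 15.9 for Krt8 and 6.92 for Krt7, beside the values of Krt19, Gata3 and Hand1 above.

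EHe differed from its ES parent in these genes. Hand1, Krt7, Krt8 and Krt18 were over 3-fold lower in EHe, 4 were within the threshold (Tfap2c, Krt19, Cdx2 and Gata3), and Elf5 and Plac1 gave no fold. None was higher. Of all probes 2.76% were lower and 2.54% higher, and the median was -1.31 over the 10 genes against 0.06 over all probes. Tfap2c was 1.65-fold lower, and Cdx2 at least 2.61-fold lower.

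**Figure D2:**
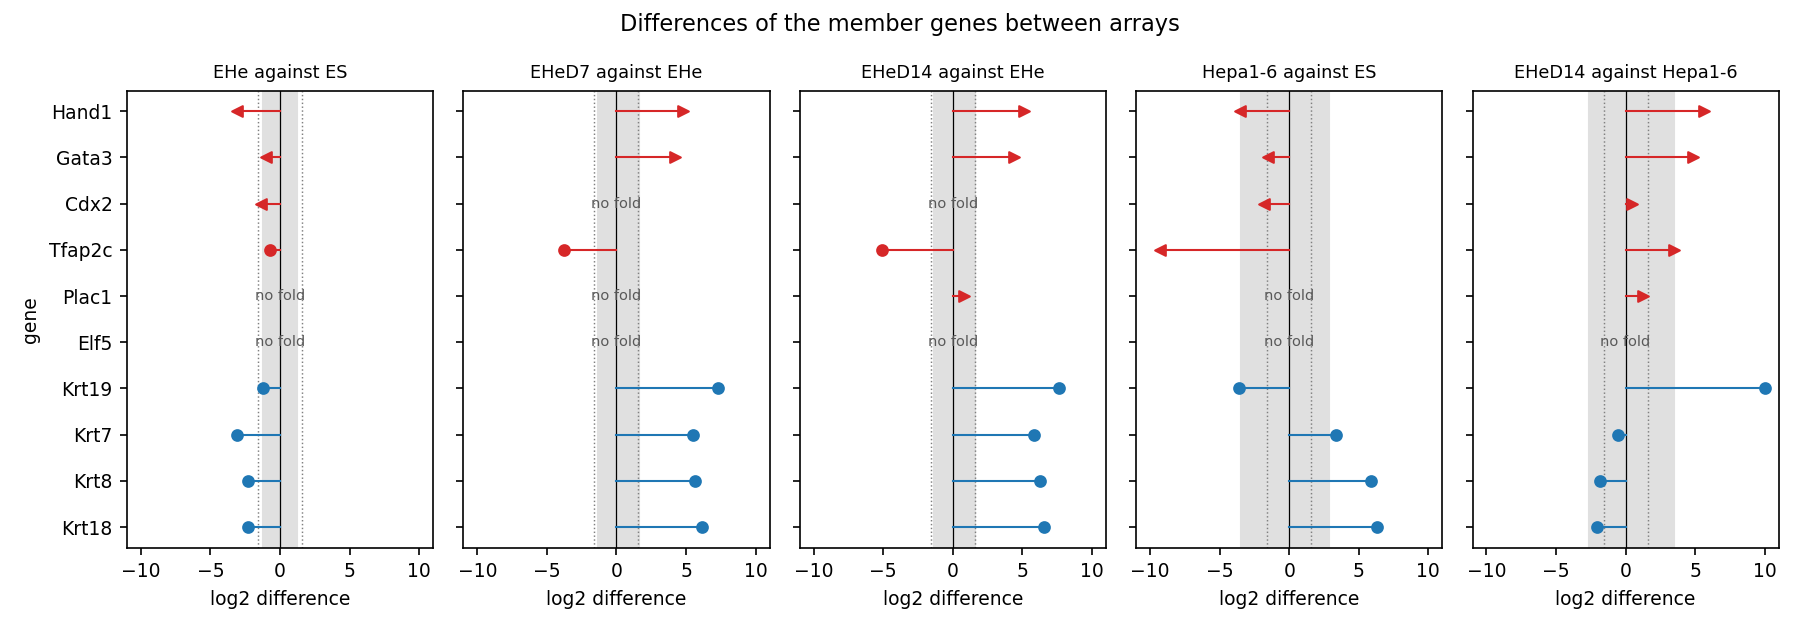
Log2 differences (horizontal axes) of the 10 genes (vertical axis) in 5 comparisons, with points for measured differences, arrowheads for lower bounds and "no fold" where no bound could be given, red for placental genes and blue for keratins. The grey band holds all probes except the highest and the lowest 5%, and dotted lines mark 3-fold. Krt19, Krt7, Krt8, Krt18, Hand1 and Gata3 lie to the right of the band at both days, Tfap2c lies to its left, and Krt19 stands at 10.02 in EHeD14 against Hepa1-6.

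The plot of differences sets each gene against the spread of all probes in the same comparison, which was wider wherever Hepa1-6 took part. The parents differed by over 3-fold in 7 of the 10 genes. Krt18 was 79.3-fold, Krt8 57.3-fold and Krt7 10-fold higher in Hepa1-6 than in ES. Krt19 was 12.4-fold lower, Hand1 at least 11.8-fold lower and Cdx2 at least 3.6-fold lower in Hepa1-6, beside the value of Tfap2c given above. With normexp Krt19 was 4.29-fold and Hand1 at least 5.06-fold lower. The Cdx2 difference did not pass the threshold under another background correction or scaling. With 12.3% of all probes higher and 17.7% lower, such differences were common between these lines. The medians were -0.85 over the 10 genes and -0.20 over all probes.

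EHeD14 was over 3-fold higher than Hepa1-6 in Krt19, Hand1, Gata3 and Tfap2c, and lower in Krt8 and Krt18. For all probes the shares were 14.9% and 11.3%, and the medians were 0.86 and 0.08. Hand1 was at least 48.7-fold and Gata3 at least 28.4-fold higher in EHeD14, with bounds of 18.1 and 10.3 under normexp. Krt8 was 3.61-fold and Krt18 4.18-fold lower, whereas Krt7 was 1.45-fold lower.

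For the keratins that Hepa1-6 expressed, the differentiated hybrids lay between EHe and Hepa1-6. Of the log2 distance from EHe to Hepa1-6, Krt7 had covered 85.9% at day 7 and 91.6% at day 14. For Krt8 these shares were 69.7% and 77.2%, and for Krt18 71.0% and 76.1%. On the linear scale, the EHeD14 signal, scaled to the 75th percentile, was 68.9% of that of Hepa1-6 for Krt7, 27.7% for Krt8 and 23.9% for Krt18. With median scaling these shares were 38.8%, 15.6% and 13.5%. Krt19 in the differentiated hybrids lay farther from the Hepa1-6 level than in EHe, since EHe already lay above it.

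**Figure D3:**
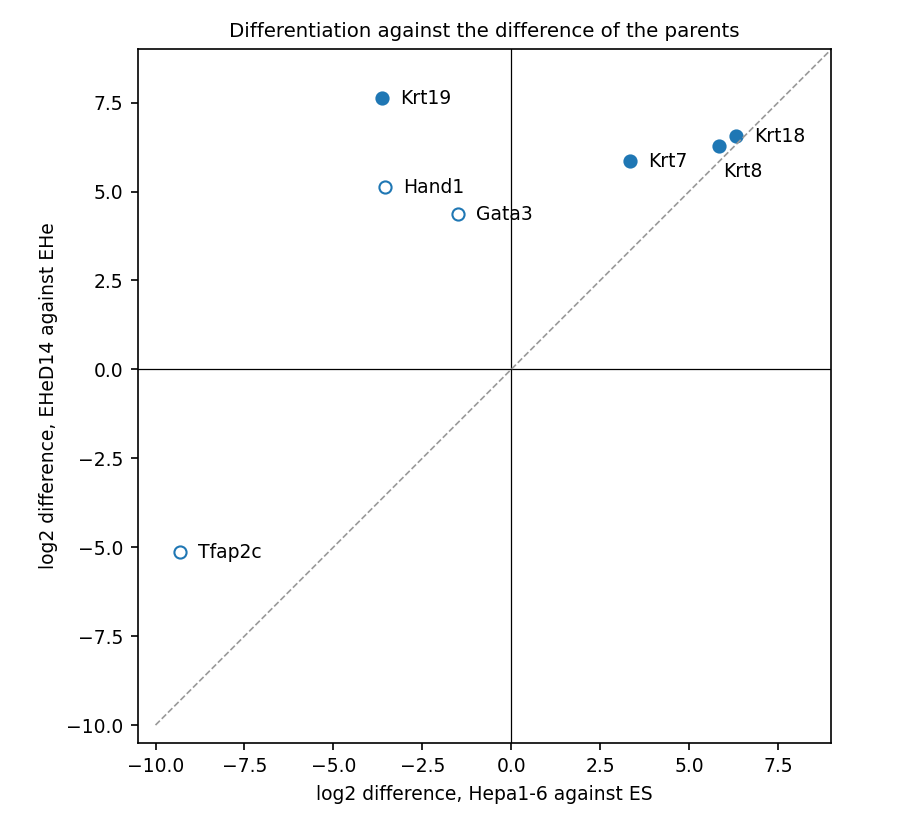
The log2 difference of EHeD14 to EHe (vertical axis) against that of Hepa1-6 to ES (horizontal axis) for the 7 genes with a measured or bounded value in both, with filled points for measured differences, open points where either is a lower bound, and a dashed line where the 2 are equal. Krt7, Krt8 and Krt18 are higher on both axes and Tfap2c is lower on both, while Krt19, Hand1 and Gata3 lie at the upper left, lower in Hepa1-6 than in ES and higher in EHeD14 than in EHe.

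The 2 differences in this plot share no array. Krt7, Krt8, Krt18 and Tfap2c had the same sign in both, and Krt19, Hand1 and Gata3 had opposite signs, although Gata3 was not over the threshold between the parents.

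The likeness of profiles was measured as the root mean square difference, over the 5 arrays, of log2 levels centred on their mean, among 14446 named genes, and is a description from 5 points that share array and scaling. Krt8 and Krt18 were each other's closest gene, at 0.21. Their genes are neighbours on chromosome 15, with 0 protein-coding genes between them in the RefSeq order and 23 between Krt7 and Krt8. For Krt8 the next were Ccn2 (0.21) and Ifi27l2a (0.48), and for Krt18 the same genes at 0.36 and 0.54. Krt7 lay at 0.82 from Krt8, and the closest to Krt7 were Irgm1 (0.21), Slc40a1 (0.37) and Fhl2 (0.59). Krt19 had no gene nearer than Cldn6 (0.81), which encodes a tight junction protein of early epithelia, followed by Trh (0.89) and Epha1 (0.95). Krt18 and Krt19 stood 4.60 apart.

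Of the regulators, Tfap2c was closest to Fbxo15 (0.29), a gene known from ES cells, then Gpat2 (0.30) and Morc1 (0.53). Gata3 was closest to Lad1 (0.06), Smpdl3a (0.08) and Tmem184a (0.23). Hand1 was closest to Gja1 (0.21), which encodes a gap junction protein, Rerg (0.21) and 9130008F23Rik (0.24), and Gata3 was number 26 in its order, at 0.75. Cdx2 was closest to Spaca9 (0.13), Tfap2b (0.14) and 1700001P01Rik (0.16). For Cdx2, Hand1 and Gata3 the EHe and Hepa1-6 values were set at the limits or nearly so, and genes dim on the same arrays share these values.

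Other genes of the trophoblast lineage did not follow a single direction. Of a list of 35 such genes, 31 were named on the array, and 26 of these were measured on 1 array or more. In EHeD14 against EHe 5 were over 3-fold higher, 5 were over 3-fold lower, 13 were within the threshold and 8 gave no fold, beside the shares of 5.18% and 3.78% of all probes. The list had a median of -0.44, with dim values at the limits. Higher were Eomes (15.7-fold), the T-box factor of trophoblast stem cells that is also made in the primitive streak, Peg10 (at least 9.4-fold), an imprinted gene needed for the placenta, Bmp8b (at least 8.43-fold), Id2 (7.33-fold) and Msx2 (at least 3.42-fold). Lower were the X-linked homeobox genes Rhox9 (23.8-fold) and Rhox6 (14.7-fold), Ppp2r3a (5.15-fold), Bmp4 (3.75-fold) and Tfeb (3.3-fold). The level of Eomes was -4.04 in ES, -3.38 in EHe, 0.62 at day 7, 0.59 at day 14 and -6.33 in Hepa1-6, so that it was no lower in EHe than in ES. At day 7 5 genes were higher and 4 lower, beside 5.03% and 3.59% of all probes.

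The label of trophoblast was checked against a list of 10 markers, 6 of them the placental genes above, of which 9 were named on the array. In EHeD14 against EHe 3 of the 9 were higher (Hand1, Gata3 and Eomes), 1 was lower (Tfap2c), 1 was within the threshold and 4 gave no fold. The shares of all probes were 5.18% higher and 3.78% lower. Tpbpa, the marker of the spongiotrophoblast, was not well above background on any array, and Gcm1, the factor of the labyrinth, only in EHeD7, at -5.22. The summed level of the 9 markers, relative to the 75th percentile, was 16.8 in ES, 10 in EHe, 3.94 at day 7, 3.88 at day 14 and 0.0679 in Hepa1-6, and the Tfap2c probe made up most of it in ES and EHe. The trophoblast name is therefore used for the set only as a list of genes and not for the cells of EHeD7 and EHeD14.

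Markers of other cell types also differed between EHe and EHeD14, and their part in the values above was not tested. Beside the counts that follow, 5.18% of all probes were higher and 3.78% lower in this comparison. Of 12 markers of early and lateral mesoderm, 1 was higher, T (at least 93.7-fold), the T-box factor of the primitive streak, and 1 was lower, Bmp4. Of the 12, 2 were within the threshold and 8 gave no fold. The level of T was -4.42 in ES, -6.18 in EHe, 1.62 at day 7, 1.71 at day 14 and -7.50 in Hepa1-6, with EHe and Hepa1-6 not well above background, and Mixl1 and Kdr were not well above background on any array. The summed level of this list was 2.08 in ES, 1.28 in EHe, 4.04 at day 7, 3.85 at day 14 and 1.45 in Hepa1-6. The T probe made up most of it at both days. Of 10 endoderm markers, 4 were higher at day 14, namely Dab2 (12.2-fold), Foxa2 (at least 5.31-fold), Sox17 (4.69-fold) and Gata6 (3.64-fold). None was lower, 5 were within the threshold and 1 gave no fold. The summed level of the 10 was 6.74 in ES, 1.91 in EHe, 1.73 at day 7, 4.32 at day 14 and 120 in Hepa1-6. Afp, at a level of 6.77, made up most of it in Hepa1-6. Of the 10 endoderm markers, 5 were lower in EHe than in ES, beside 2.76% of all probes. Among the 5 were Gata6, Sox17 and Dab2, in the same direction as Hand1 and the keratins.

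Of 9 markers of surface ectoderm and stratified epithelium, Perp was higher (3.49-fold) and Krt17 lower (5.42-fold) in EHeD14, while Trp63, the regulator of stratified epithelium, was not well above background on any array. Of the 9, 5 were within the threshold and 2 gave no fold. The summed level of the list was 7.18 in ES, 9.22 in EHe, 26.1 at day 7, 19.9 at day 14 and 34.8 in Hepa1-6. Perp alone made up most of it at day 7, at day 14 and in Hepa1-6, with levels of 4.62, 4.23 and 5.01. Of 8 neural ectoderm markers, Otx2 (17.6-fold), Zic1 (6.69-fold) and Nes (3.88-fold) were higher and Pax6 (at least 40.3-fold) and Tubb3 (5.62-fold) lower. Another 2 were within the threshold and 1 gave no fold. The summed level of the 8 was 9.74 in ES, 10.2 in EHe, 25.7 at day 7, 26.3 at day 14 and 0.664 in Hepa1-6. Nes and Otx2 together made up most of it at both days.

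Of 7 pluripotency markers, Esrrb (116-fold), Klf4 (41.8-fold), Zfp42 (17-fold) and Sox2 (4.48-fold) were lower in EHeD14 than in EHe, in the same direction as Tfap2c. The other 3 were within the threshold, and Pou5f1 was within 1.1-fold of EHe. The summed level was 338 in ES, 392 in EHe, 239 at day 7, 134 at day 14 and 23.5 in Hepa1-6. Dppa5a made up most of it except in Hepa1-6, where Klf4 did, at a level of 4.54. Of 9 hepatocyte markers none was higher and 1, Ahsg, was 5.49-fold lower in EHeD14. Ahsg had its highest level in ES, at 1.43, and was not well above background in Hepa1-6. Krt8 and Krt18 are also keratins of hepatocytes, and a part of such cells in their values was not tested. Of the 9, 2 were within the threshold and 6 gave no fold. Alb was well above background only in Hepa1-6, where its level was 6.06, and the summed level of this list was 3.24 in ES, 1.18 in EHe, 0.802 at day 7, 0.475 at day 14 and 119 in Hepa1-6. Alb made up most of this sum in Hepa1-6, and Ahsg most of it in ES and EHe.

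Keratins outside the 4 did not share their difference. Of 37 other keratin genes on the array 27 were measured on 1 array or more. In EHeD14 against EHe 1 was higher, Krt1 (3.11-fold), and 3 were lower, namely Krt17 (5.42-fold), Krt23 (at least 3.67-fold) and Krt12 (at least 3.62-fold). Another 13 were within the threshold and 20 gave no fold. Of all probes measured on 1 array or more, 5.18% were higher and 3.78% lower in this comparison. The median of -0.71 is the distance between the limits of these arrays, at which the 17 genes dim on both were set. The list holds every other keratin gene named on the array, whatever its tissue. In Hepa1-6 against ES 4 were higher and 7 lower, beside 12.3% and 17.7% of all probes. Of the 4, Krt20, chosen here after its values were seen, had the largest fold, 810, and a level of 4.62 in Hepa1-6.

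Genes of epithelial junctions and adhesion were more often higher than lower. Of 27 such genes, all measured on 1 array or more, 9 were over 3-fold higher in EHeD14 than in EHe, none was lower, 17 were within the threshold and 1 gave no fold. The median was 1.37 on the log2 scale against -0.18 over all probes, and of all probes 5.18% were higher and 3.78% lower. The largest folds were those of the claudins Cldn6 (91.6) and Cldn7 (32.3), the polarity gene Crb3 (at least 17.6), the epithelial splicing factor Esrp1 (at least 13.0), the epithelial transcription factor Grhl2 (10.0) and Cldn4 (7.33). Cdh1, which encodes E-cadherin, was 2.21-fold higher and Epcam 2.99-fold higher, both under the threshold. Vim, a filament gene of mesenchymal cells that was on the list as a contrast, was 2.6-fold lower. Cdh2, a cadherin gene of mesenchymal cells on the same list, went the other way. Its level was -4.59 in EHe and -3.92 in EHeD14, a difference within the threshold.

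The level of Cldn6 was -1.01 in ES, -3.29 in EHe, 3.06 at day 7, 3.23 at day 14 and -7.24 in Hepa1-6. It had the order of arrays of Krt19 throughout, with a lower value in EHe than in ES and the lowest in Hepa1-6, where Cldn6 was not well above background. Cdh1, at 2.17 in ES, 2.67 in EHe, 4.07 at day 7, 3.81 at day 14 and -5.24 in Hepa1-6, was no lower in EHe than in ES.

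**Figure D4:**
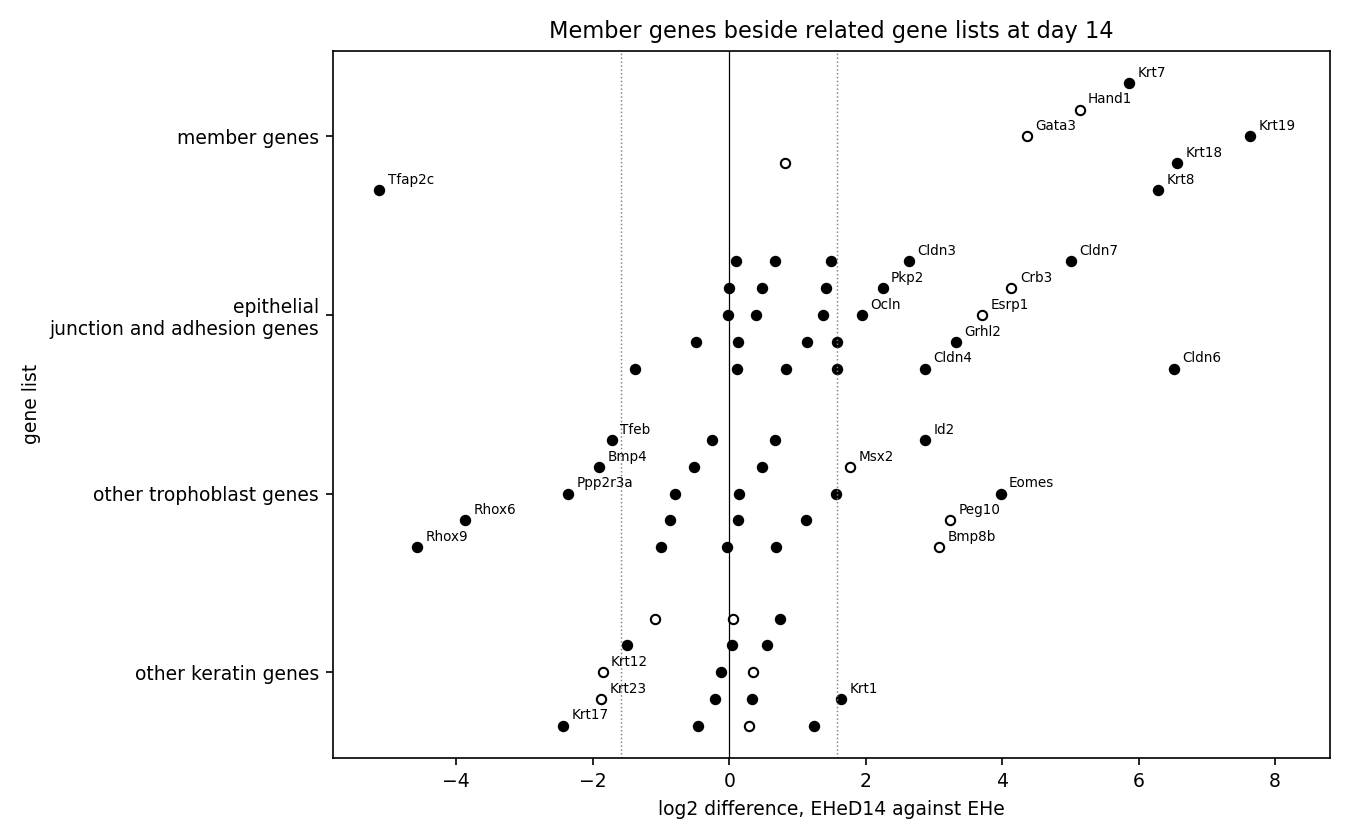
Log2 differences of EHeD14 to EHe (horizontal axis) for the 10 genes described here and 3 related gene lists (vertical axis, with points spread for legibility), with open points for lower bounds, dotted lines at 3-fold and the names of genes over it. Genes without a fold are left out. The 4 keratins, Hand1 and Gata3 lie between 4.36 and 7.63, and of the other lists only Cldn6 and Cldn7 lie in that range.

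The plot of the 4 lists shows 6 of the 10 genes at the upper end of the scale and Tfap2c at the lower end, with the junction genes mostly to the right of 0 and the other trophoblast and keratin genes on both sides of it. The lists were chosen by gene function, with earlier results of these arrays known, and are described by counts alone.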

How the data were processed

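The authors deposited 1 scanner table per array, made with Agilent Feature Extraction 10.7.3.1, whose processed signal is an intensity corrected for background by that software and not normalized between arrays. The deposited series table held the same values. The labels give the dye as Cy3, the methods as Cy5. Each array had 43379 spots for 41174 probes, of which 245 were repeated. Control spots and 73 to 174 outlier spots per array were left out, and no spot was saturated. Of all probes 54.7% to 67.6% were well above background.

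The log2 of each signal was taken, the 75th percentile of its array (1087 to 1456 before the log) was subtracted, and repeated spots were averaged. Probes were named through RefSeq records. A gene was read by the probe well above background on the most arrays and, among these, with the highest mean. Differences over 3-fold were counted among the 29921 probes measured on 1 array or more. The number of arrays, 1 per condition, limits the precision. The procedure was tested on simulated data.

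The genes, lists and comparisons were chosen with earlier results of these data known. Named were the 10 genes, list genes over 3-fold in EHeD14 against EHe (at most 6 per list and direction), the markers that define a cell type and the 3 closest profiles per gene. Alternatives were normexp background correction (offset 50), quantile normalization, median scaling, signals as measured, a 2-fold threshold, the mean of a gene's probes, the series table and a filter on all 5 arrays. Promoter letters came from RefSeq. The study's own fold values were not used here. The tools were R 4.3.3 with limma 3.58.1, and Python 3.11.15 with matplotlib 3.10.9, pandas 2.3.3 and numpy 2.4.6.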

Additional observations from a re-analysis of the deposited data

How the results depend on the processing

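No difference of the 10 genes that still gave a fold changed sign under the alternatives run. This was partly fixed in advance, since a difference with a dim side gave no fold where its bound would have crossed 0. That of Cdx2 in EHeD14 against Hepa1-6, 0.45 in the values reported, gave no fold with quantile normalization and with median scaling. Of 194 differences under 4 alternatives, 66 moved by more than the spread of repeated spots. These were 26 of 49 with normexp, 16 of 48 with median scaling, 14 of 49 with signals as measured and 10 of 48 with quantile normalization. Signals as measured could move only differences with a dim value, so the rest of its 49 were fixed in advance as unmoved. The counts of genes over the threshold were also recomputed, and 122 of 144 stayed within 1.5 times their value. These 144 include the counts from the series table, which held the same values and could not move. They also include those from the mean of a gene's probes, which could change only genes with several probes. The 122 are therefore no measure of stability. Under the filter on all 5 arrays 4 of the 10 genes remained, the keratins, so that 0 were lower in either differentiated hybrid than in EHe, 1 (Krt19) was lower in Hepa1-6 than in ES, and 1 (Krt19) was higher in EHeD14 than in Hepa1-6. Of the lists in EHeD14 against EHe, the same filter left 1 higher and 3 lower of 12 other trophoblast genes, 0 higher and 1 lower of 6 other keratins, and 4 higher of 19 junction genes. At 2-fold, 7 of the 10 genes were lower in EHe than in ES (Cdx2, Gata3 and Krt19 added), 1 (Plac1) was higher and 1 (Tfap2c) lower in EHeD14 than in EHeD7, 2 other keratins were higher and 5 lower, and 15 junction genes were higher and 1 was lower. The counts under the filter and at 2-fold are given without a share of all probes, and so cannot be set against one. With normexp 3 other trophoblast genes were lower, and 0 other keratins were higher and 1 lower. Quantile normalization and median scaling each left 0 other keratins higher, and signals as measured gave 6. Single calls also moved. The difference of Cdx2 in Hepa1-6 against ES, -1.85, was -1.29 with normexp, -0.91 with quantile normalization and -1.06 with median scaling, all under the threshold. With signals as measured Cdx2 in EHe against ES (-3.66) and in EHeD14 against Hepa1-6 (2.77), Plac1 in EHeD14 against EHe (2.41) and against Hepa1-6 (2.16), and Gata3 in Hepa1-6 against ES (-3.62) passed it. The cause was not tested, beyond the smaller number of genes or the other threshold where the alternative sets one.

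With median scaling the folds of Hepa1-6 over ES were 17.3 for Krt7, 98.7 for Krt8 and 136 for Krt18. With normexp Tfap2c was at least 4.16-fold higher in EHeD14 than in Hepa1-6. The scaling moved the median of all probes. In Hepa1-6 against ES it was -0.20 in the values reported, 0.58 with median scaling, 0.20 with quantile normalization and -0.30 with normexp, and in EHeD14 against Hepa1-6 0.08, -0.75, -0.28 and 0.11. In EHeD14 against EHe it was -0.18, -0.33, -0.21 and -0.03. No paired analysis was possible because the 5 arrays stand for 5 conditions. Background limits Cdx2, Elf5 and Plac1, and makes the folds of Hand1 and Gata3 over EHe lower bounds.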
